A study of Mus musculus with 5 samples.

Results

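Mouse tumours treated with agonistic anti-CD40 plus anti-CTLA-4 were compared, cell type by cell type, with tumours treated with anti-PD-1 plus anti-CTLA-4. The cells were T cells, dendritic cells and neutrophils, chosen as clusters of barcodes named from marker genes (Cd3e, Cd3d and Cd3g for T cells, Flt3, Ccr7, Fscn1, Xcr1 and Cd209a for dendritic cells, S100a8 and Csf3r for neutrophils, with the other markers of each type). They came to 3901 of the 26388 barcodes used in the 2 libraries, and of 48004 in the 4 libraries of treated mice. CD40plusCTLA4 held 394 T cells, 150 dendritic cells and 353 neutrophils, and PD1plusCTLA4 held 2255, 505 and 244. Macrophages, 2415 and 1026 cells, served as the background.

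The tumours were grown from the mouse line Renca, a renal cortical adenocarcinoma, under the skin of wild-type Balb/c mice. From day 10 each mouse received 2 intraperitoneal doses of its antibodies at 200 µg each: anti-PD-1 (clone RMP1-14), anti-CD40 (clone FGK4.5) or anti-CTLA-4 (clone 9H10). Both compared groups received anti-CTLA-4, so they differ by anti-CD40 in one and anti-PD-1 in the other. PD1plusCD40 received those other two antibodies together, Triplet received all 3, and the values of both are given beside some results. Tumours were taken 24 h after the last dose. CD45+CD3+ T cells, CD45+CD3- immune cells of other kinds, and cells without CD45 were sorted and mixed 2:1:1 with equal parts from 3 mice, then read as 1 pooled library per group with a droplet 5′ kit. With 1 library a side no difference could be tested, differences between mice cannot be told apart from those between treatments, and all intervals are 95% intervals for counting error only.

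CD40 is a receptor of the tumour necrosis factor receptor family on dendritic cells, B cells and macrophages. Its ligand, on activated helper T cells, switches on NF-kB through TRAF adaptors and licenses dendritic cells to prime T cells. PD-1 and CTLA-4 are inhibitory receptors of activated T cells, and CTLA-4 is also carried by regulatory T cells, which hold immune responses in check. Mature dendritic cells turn on Ccr7 and Fscn1 and give up the genes of their immature type, while neutrophils are short-lived phagocytes that respond readily to type I interferon.

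The libraries differed before any class was named. The barcodes used had a median of 1827 UMIs (unique molecular identifiers, counted RNA molecules) in CD40plusCTLA4 and 4779 in PD1plusCTLA4. Of these barcodes 69.3% and 30.6% lay in clusters left unnamed. Such clusters scored too low, held too few markers or also carried markers of another class. The largest, with macrophage markers highest but Ctsk, S100a9 and S100a8 among its leading genes, held 4133 and 78 barcodes. T cells made up 2.4% of barcodes in CD40plusCTLA4 and 22.6% in PD1plusCTLA4 although the fractions were mixed at a set ratio, so shares are given within a sorted fraction only. Within classes the depth was closer, with median UMIs of 2382 and 2462 in T cells, 9412 and 7742 in mature dendritic cells, and 1096 and 870.5 in neutrophils. The 2 libraries shared 44 barcode sequences, 0 of them within T cells, dendritic cells or neutrophils. Class names stand for X-like clusters. The defining markers of T cells, mature dendritic cells and neutrophils were present, while Xcr1 and Clec9a, which define type 1 dendritic cells, had 0 UMIs in the dendritic cells of CD40plusCTLA4.

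Regulatory T cells (Tregs), the Foxp3-expressing T cells that restrain others, made up the largest named subclass of T cells in both libraries. They were 204 of 394 T cells in CD40plusCTLA4, or 51.8% (46.7 to 56.8), and 868 of 2255 in PD1plusCTLA4, or 38.5% (36.5 to 40.5). The share was 67.3% in PD1plusCD40 and 50.9% in Triplet, so PD1plusCTLA4 was the lowest of the 4. Conventional CD4 T cells made up 24.9% (20.7 to 29.4) and 33.4% (31.5 to 35.4) of T cells. CD8 T cells, the class that holds most cytotoxic T cells, made up 11.7% (8.68 to 15.3) and 16.9% (15.3 to 18.5), with counting intervals that meet at 15.3%. The share of T cells without a subclass was 8.88% and 9.71%. Unnamed clusters with T cell markers are left out of all these shares. A cluster led by Xcl1 and Ccl1, with Ctsk and Mmp9 also among its leading genes, held 92 barcodes of CD40plusCTLA4 and 11 of PD1plusCTLA4. Another, led by Ccl1 and Xcl1, held 9 and 68. A cluster with macrophage markers highest and T cell markers second held 178 and 575.

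The makeup of the named dendritic cells differed far more. Mature dendritic cells were 146 of 150 dendritic cells in CD40plusCTLA4, or 97.3% (93.3 to 99.3), and 164 of 505 in PD1plusCTLA4, or 32.5% (28.4 to 36.8). Type 2 dendritic cells, which carry Cd209a and Mgl2 and present antigen mainly to CD4 T cells, were 2 of 150 cells (1.33%, 0.162 to 4.73) and 289 of 505 (57.2%, 52.8 to 61.6). Cells of the type 1 cluster, named for the type that cross-presents to CD8 T cells, were 2 of 150 and 52 of 505, and the 2 cells held no UMI of Xcr1 or Clec9a. In PD1plusCD40 the mature share was 97.5% and type 1 cells were 0 of 159, which allows a share of up to 1.89%. In Triplet, which also received anti-CD40, the mature share was 13.4% and the type 2 share 85.7%. By named clusters the mature share thus differed among the libraries that received anti-CD40, and the cause was not tested. The denominator leaves out unnamed clusters whose highest score was for dendritic markers but under the minimum for a name. The mature shares therefore depend on that minimum, which was chosen with the data in view. Unnamed clusters led by Ccl17, Asgr2 and Mfge8 (type 2 markers highest) held 158 and 111 barcodes of CD40plusCTLA4 and 5 and 9 of PD1plusCTLA4. The same clusters held 186 and 119 barcodes of PD1plusCD40 and 22 and 14 of Triplet. Others with type 2 markers highest, led by Ear2 and Mucl1, held 2 and 2 of CD40plusCTLA4 and 154 and 110 of PD1plusCTLA4. In PD1plusCD40 they held 2 and 8 barcodes and in Triplet 72 and 107. With mature markers highest, a cluster led by Ccl22, Ctsk and Fscn1 held 1043 and 16 barcodes. Its macrophage score was nearly as high (0.196 beside 0.206). A further mature-led cluster held 44 and 4. With finer clusters (Leiden resolution 2) the mature share was 82% in CD40plusCTLA4 and 31.1% in PD1plusCTLA4.

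Counts that need no cluster names gave the same order for immature dendritic cells. Over all barcodes used, Xcr1 had 17 UMIs in CD40plusCTLA4 and 304 in PD1plusCTLA4, Clec9a 23 and 272, and Cd209a 60 and 1735. Barcodes with both Xcr1 and Clec9a numbered 0 and 35. The maturation gene Ccr7 stood at 24.2 and 26.4 CPM (the usual scaling of counts to a common total, here all UMIs of the library), and Fscn1, an actin-bundling protein of mature dendritic cells, at 51.9 and 26.3 CPM.

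As a share of the named CD45+CD3- cells (4564 and 2964), all dendritic cells together were 3.29% in CD40plusCTLA4 and 17% in PD1plusCTLA4, while mature ones were 3.2% and 5.53%. Neutrophils were 7.73% (6.98 to 8.55) and 8.23% (7.27 to 9.28), a ratio of 0.94. That ratio rested on the processing, at 1.8 with a limit of 1000 UMIs per barcode and 0.402 with a gate on marker UMIs in each barcode in place of clusters, so no order is read from it. Macrophages were 52.9% and 34.6%, and osteoclast-like phagocytes, a Ctsk-rich class, 29.8% and 0.236%, which lowers every other share of this fraction in CD40plusCTLA4.

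**Figure D1:**
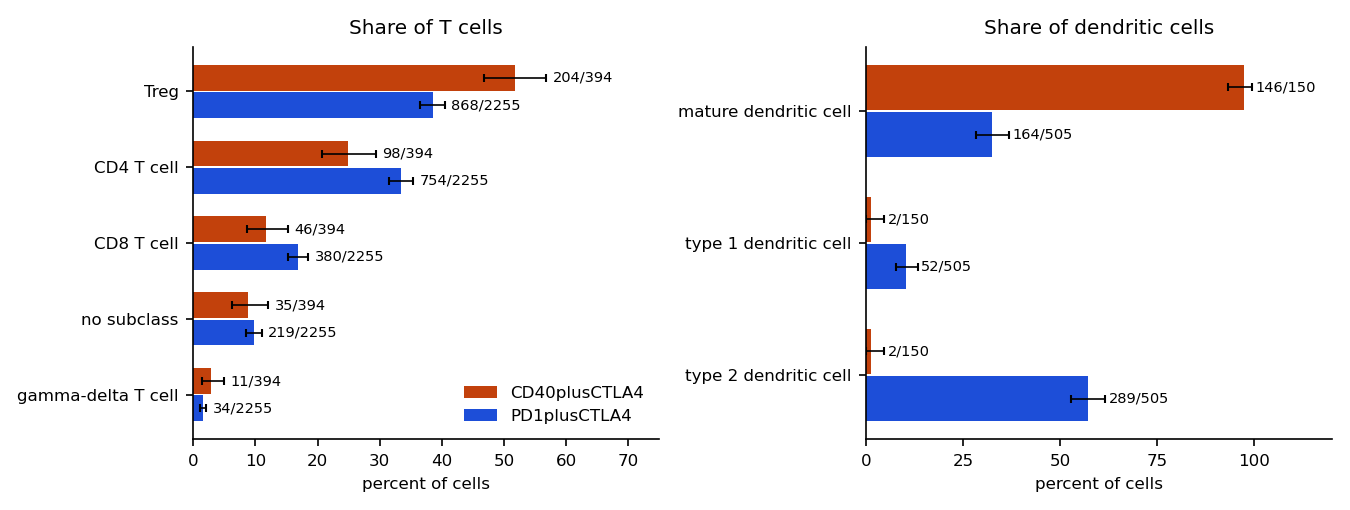
Share of each subclass among T cells and among dendritic cells (percent, x axis; bars) in CD40plusCTLA4 and PD1plusCTLA4, with exact Clopper-Pearson 95% intervals and the cell counts beside the bars. Mature dendritic cells fill 97.3% of the named dendritic cells in CD40plusCTLA4 and 32.5% in PD1plusCTLA4, where type 2 cells fill 57.2%. Unnamed clusters with dendritic markers highest are left out.

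Gene levels are UMIs summed over the cells of a class, scaled to CPM of that class's UMI total, and log2 folds are on CPM plus 5. A gene was measured with at least 20 UMIs over both libraries and 20 CPM in one. It was called higher or lower in CD40plusCTLA4 with at least a 2-fold difference on that scale, a counting interval of the ratio that excludes 1 and at least 10 cells holding a UMI in the higher library. In T cells as a whole 28 genes (0.458% of the 6120 measured) were higher and 30 (0.49%) were lower in CD40plusCTLA4. In macrophages 93 of 6169 genes (1.51%) were higher and 277 (4.49%) were lower, and 7 of the 28 and 6 of the 30 T cell genes were called the same way in macrophages.

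The T cell marker genes that defined the class were near level. Cd3g stood at 1619 against 1411 CPM, Cd3d at 894 against 885 CPM and Cd3e at 447 against 585 CPM, the first value of each pair being that of CD40plusCTLA4 here and below. These are subunits of the CD3 complex that carries the T cell receptor signal. The antibody targets on T cells were not called in the class as a whole, with Pdcd1, which encodes PD-1, at 176 against 133 CPM and Ctla4 at 311 against 252 CPM. RNA levels say nothing of how much PD-1 or CTLA-4 protein was bound by antibody.

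Chemokine genes were the list with the most calls in T cells: 1 of 9 measured was higher and 5 were lower, with a median log2 fold of -1.19 beside -0.0413 over all genes measured. Xcl1, the ligand of the XCR1 receptor on type 1 dendritic cells, stood at 294 CPM (266 to 324) in CD40plusCTLA4 and 875 CPM (854 to 896) in PD1plusCTLA4, 2.97-fold (2.69 to 3.3) lower in CD40plusCTLA4. Ccl1, a ligand of CCR8, stood at 97.8 CPM (82 to 116) in CD40plusCTLA4 and 428 CPM (413 to 443) in PD1plusCTLA4, 4.37-fold (3.68 to 5.24) lower. Beside them Xcl1 stood at 281 CPM in PD1plusCD40 and 603 CPM in Triplet and Ccl1 at 392 CPM in PD1plusCD40 and 459.9 CPM in Triplet, so Xcl1 was lower in both libraries that received anti-CD40 with 1 other antibody than in Triplet. Ccl3 (10.2 against 125 CPM) and Ccl4 (15.3 against 336 CPM), chemokines of activated lymphocytes and phagocytes, were also lower, but both, like Ccl8 and Ccl17, were over 5 times higher in another class. With a marker gate per barcode in place of clusters, the list counted 7 higher and 6 lower of 16 (median 0.53) and Xcl1 lost its call (-0.53). The unnamed clusters led by Xcl1 and Ccl1 are left out of these levels, and their part was not tested.

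Of the cytotoxicity genes 1 of 15 measured was higher and 1 was lower. Ifng, which encodes interferon-gamma, stood at 74.5 against 253 CPM and Gzma, a granzyme, at 275 against 93.2 CPM. NK markers summed to 370.1 CPM in these T cells in CD40plusCTLA4 and 169 CPM in PD1plusCTLA4, and Gzma itself is one of them. The same sums were 29.5 and 124 CPM in Tregs and 0 and 40.7 CPM in conventional CD4 T cells. In CD8 T cells Gzma was at 23.6 and 119 CPM. In CD40plusCTLA4 none of these subclasses reached the 275 CPM of the whole class. Its Gzma level therefore came from the remaining T cells, 35 of no subclass and 11 gamma-delta cells, and was not a rise across T cells. Whether NK cells within the T cell clusters bear on Gzma was not tested. Over whole libraries, where T cells made up 2.4% and 22.6% of barcodes, Ifng was at 3.57 and 38.7 CPM.

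Among other T cell genes, Ly6a, which encodes the surface protein Sca-1 and is induced by interferon, stood at 774 CPM (728 to 822) in CD40plusCTLA4 and 332 CPM (319 to 345) in PD1plusCTLA4, 2.33-fold (2.17 to 2.51) higher. The other treated libraries held 629 CPM in PD1plusCD40 and 333 CPM in Triplet. In macrophages Ly6a went the other way, at 27 against 298 CPM. Itga4, the alpha chain of the VLA-4 integrin that holds leukocytes to the vessel wall, stood at 111 CPM (94 to 130.1) in CD40plusCTLA4 and 268 CPM (257 to 279.9) in PD1plusCTLA4, 2.42-fold (2.05 to 2.87) lower. It was lower in macrophages too (43.9 against 122 CPM). Cd40lg, the ligand of CD40 on helper T cells, was lower at 22.6 against 53.9 CPM. Ly6a lost its call with the marker gate (0.34) and Itga4 with equal cell numbers (-0.98).

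Hist1h2ap (444 against 70.4 CPM), a histone H2A gene, and Fdps (97.1 against 40.7 CPM), an enzyme of the mevalonate pathway, were among the genes with the highest folds. Macrophages showed the same direction for both. Rpa3 (105 against 47.3 CPM), a subunit of the single-strand DNA binding complex, and Dnajb1 (81 against 36.4 CPM), a heat shock co-chaperone, followed. Fosb (28.5 against 68.3 CPM), an immediate early transcription factor, was lower.

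Several other T cell lists held no call. Inhibitory receptors counted 0 of 15, T cell receptor signalling 0 of 20, interferon-gamma response 0 of 26 and cell cycle 0 of 24. Treg genes counted 0 of 18 at a median of 0.572, above the -0.0413 of all genes, in a class whose Treg share was higher. Members such as Tnfrsf4 (596 against 344 CPM) and Tnfrsf18 (539 against 319 CPM), costimulatory receptors rich on Tregs, stayed under the 2-fold limit.

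**Figure D2:**
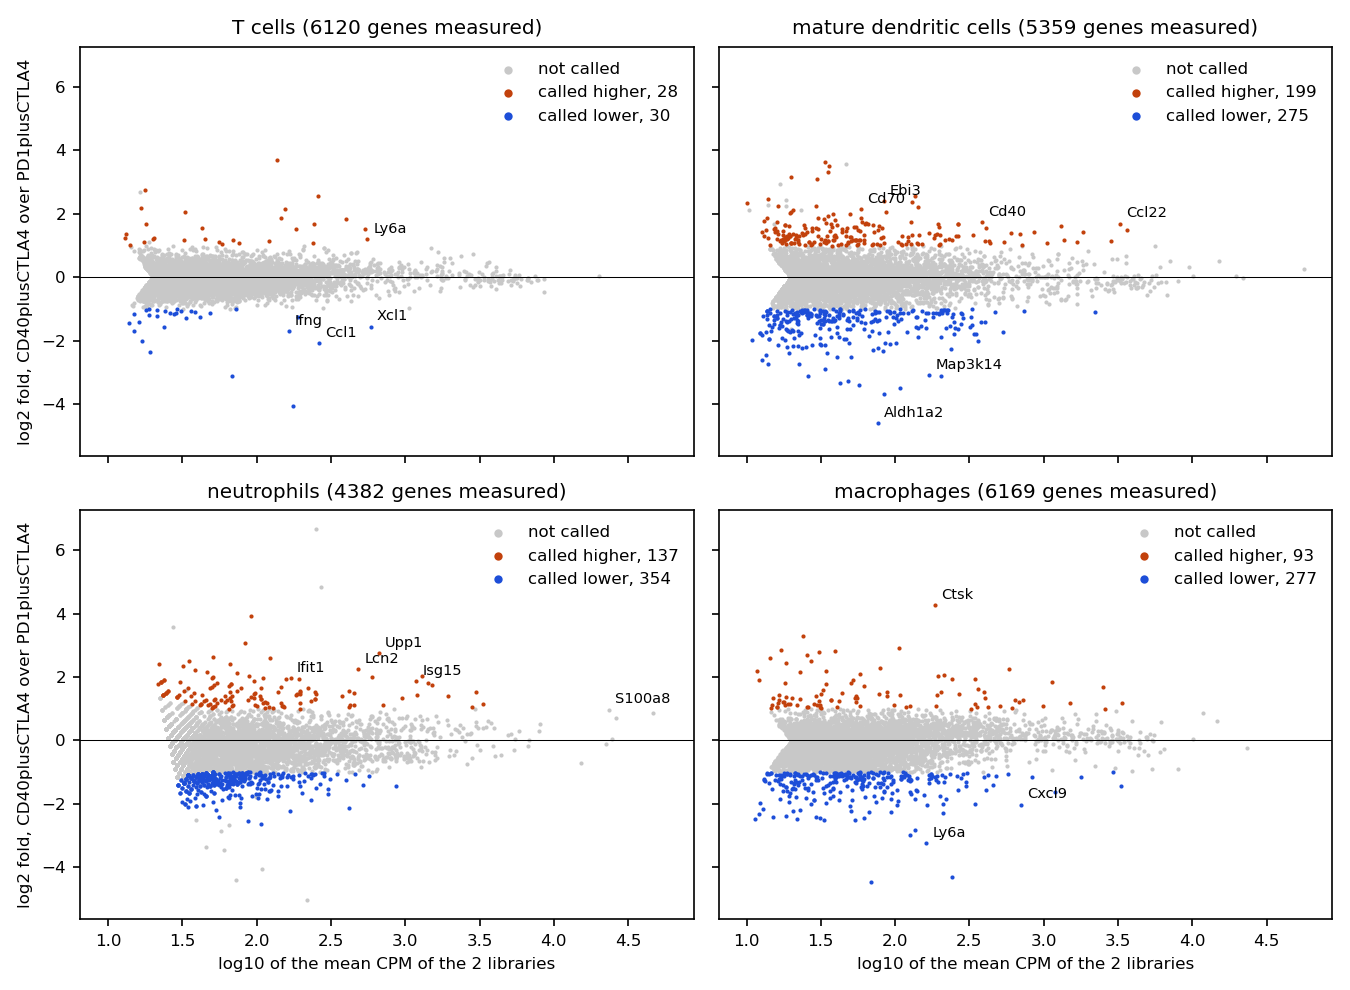
Log2 fold of CD40plusCTLA4 over PD1plusCTLA4 (y axis, CPM plus 5) against mean level (x axis, log10 CPM) for each measured gene in T cells, mature dendritic cells, neutrophils and macrophages, with called genes coloured. T cells show the fewest called genes, 28 higher (0.458% of those measured) and 30 lower (0.49%). Mature dendritic cells show 199 (3.71%) and 275 (5.13%) and neutrophils 137 (3.13%) and 354 (8.08%). This order did not hold with cells thinned to 500 UMIs, at 249 calls in T cells, 141 in mature dendritic cells and 221 in neutrophils.

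Within Tregs alone 62 of 6224 genes (0.996%) were higher and 83 (1.33%) were lower in CD40plusCTLA4, from 204 cells against 868. The 8 markers that named the class summed to 5609 against 4454 CPM, with 6 of them higher in CD40plusCTLA4 and 0 called. Foxp3, the transcription factor that defines Tregs, stood at 205 against 209 CPM, Ikzf2, which encodes Helios, at 2059 against 1944 CPM, and Ctla4 at 577 against 527 CPM. Of 20 measured Treg genes 1 was higher, 1 was lower and the median log2 fold was 0.353, beside -0.0266 over all genes measured in Tregs.

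The member that was higher was Tnfrsf9, which encodes 4-1BB, a costimulatory receptor of recently activated T cells. It stood at 683 CPM (617 to 754) in CD40plusCTLA4 and 294 CPM (274 to 315) in PD1plusCTLA4, 2.32-fold (2.05 to 2.62) higher. Beside these stood 703 CPM in PD1plusCD40 and 395 CPM in Triplet, so PD1plusCTLA4 was the lowest of the 4 libraries. Tnfrsf4 (1178 against 716 CPM), Tnfrsf18 (1004 against 622 CPM) and Il2ra (434 against 257 CPM), the high-affinity interleukin-2 receptor chain, were above PD1plusCTLA4 without reaching 2-fold. All of these are also markers that named the class. Icos, another costimulatory receptor, stood at 412 against 371 CPM.

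Nrp1, a receptor typical of Tregs from the thymus, was the member that was lower, at 46.9 CPM (30.9 to 68.2) in CD40plusCTLA4 and 102 CPM (90.4 to 115) in PD1plusCTLA4. Pdcd1, the target of the antibody that only PD1plusCTLA4 of the pair received, stood at 130.3 CPM (102 to 163) in CD40plusCTLA4 and 56.6 CPM (48 to 66.3) in PD1plusCTLA4, 2.3-fold (1.72 to 3.05) higher. It stood at 165 CPM in PD1plusCD40 and 92.7 CPM in Triplet, both given anti-PD-1, so the library without anti-PD-1 lay within the range of those with it. Neither gene kept its call within the largest Treg cluster alone (Nrp1 -0.65, Pdcd1 0.67), an alternative chosen after seeing the data. That cluster held 36.8% of Tregs in CD40plusCTLA4 and 63.1% in PD1plusCTLA4.

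Itga4 was lower in Tregs, at 55.6 CPM (38 to 78.5) in CD40plusCTLA4 and 277 CPM (258 to 298) in PD1plusCTLA4, 4.99-fold (3.5 to 7.35) lower. Its level was 71.8 CPM in PD1plusCD40 and 188 CPM in Triplet, also below PD1plusCTLA4. Itga6, an integrin chain for laminin, stood at 20.8 against 66.6 CPM, Pecam1, an adhesion molecule of leukocytes and endothelium, at 53.9 against 138 CPM, and Cd226, an activating receptor that competes with TIGIT, at 46.9 against 105 CPM. Pecam1 (-0.94) and Cd226 (-0.78) fell short of the limit within the largest Treg cluster, and Itga4 was called under all alternatives run for Tregs.

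Further genes that were lower were Il6ra (15.6 against 57 CPM), the interleukin-6 receptor, Cxcr3 (45.2 against 99.1 CPM), a receptor for interferon-induced chemokines, and Tcf7 (12.2 against 31.8 CPM), a transcription factor of naive and memory T cells. Cd40lg stood at 6.95 against 24 CPM and Ccl1 at 0 UMIs in CD40plusCTLA4 against 31.8 CPM in PD1plusCTLA4. On the other side Ly6a stood at 1459 CPM (1362 to 1561) in CD40plusCTLA4 and 649 CPM (619 to 679.9) in PD1plusCTLA4, 2.25-fold (2.07 to 2.44) higher. Rap2a (79.9 against 27.4 CPM) and Rras (53.9 against 18.9 CPM), small GTPases, Cd80 (52.1 against 20.7 CPM), a ligand of CD28 and CTLA-4, and Dnajb1 (97.3 against 42.9 CPM) were also higher.

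MHC class II genes were higher in 5 of 8 measured, with a median of 1.28, among them Cd74 (339 against 108 CPM), the invariant chain, and H2-Aa (141 against 49.2 CPM). These are genes of antigen-presenting cells: in the RNA of CD40plusCTLA4 barcodes with 1 to 100 UMIs, mostly empty droplets, Cd74 stood at 3703 CPM and H2-Aa at 1781 CPM. Mature dendritic cell markers summed to 111 and 70.7 CPM in Tregs and macrophage markers to 340.5 and 292 CPM. Their part in the class II counts was not tested, and with cells thinned to 500 UMIs the count was 2 of 7.

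**Figure D3:**
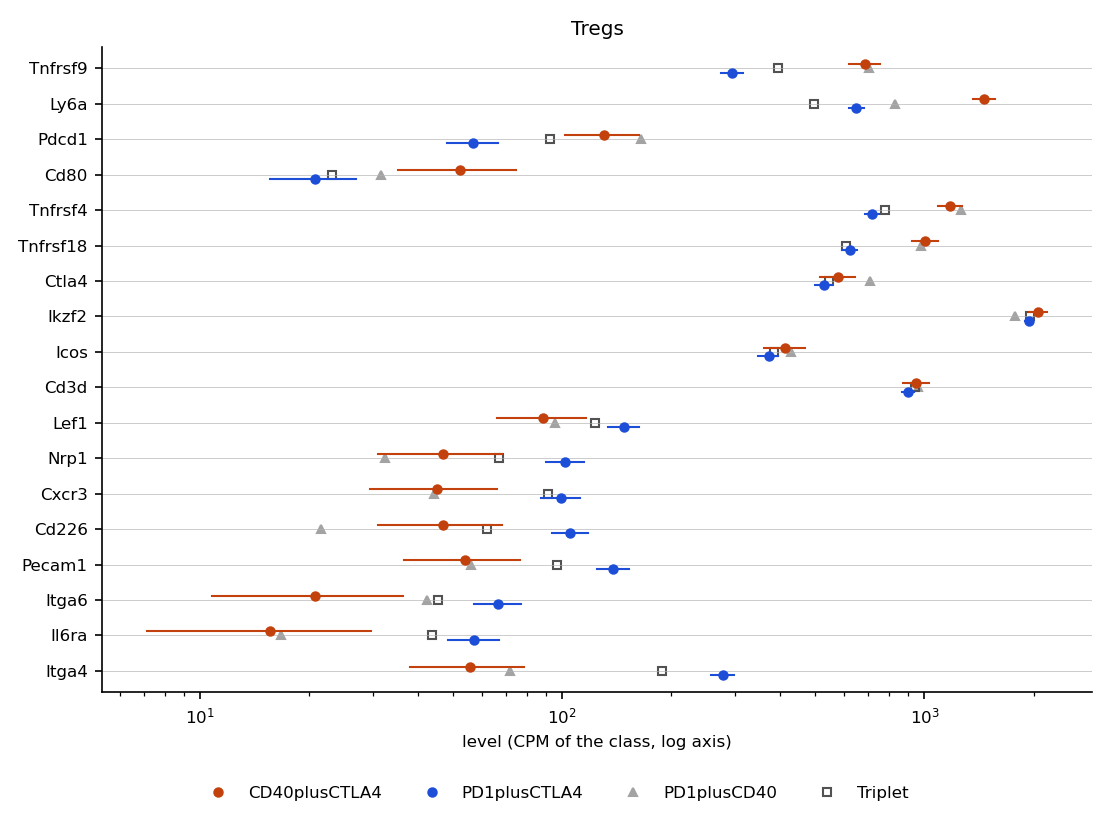
Level (CPM, log x axis) of 18 genes in Tregs of the 4 libraries of treated mice, with exact Poisson 95% intervals for CD40plusCTLA4 and PD1plusCTLA4. Ikzf2 and Ctla4 lie close together across the compared pair, Tnfrsf9 (683 against 294 CPM) and Ly6a lie to the right and Itga4 (55.6 against 277 CPM) to the left in CD40plusCTLA4.

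Conventional CD4 T cells numbered 98 in CD40plusCTLA4 and 754 in PD1plusCTLA4, and 72 of 6292 genes (1.14%) were higher and 206 (3.27%) were lower. Rgs2 (103 against 28.2 CPM), a regulator of G protein signals, and Ramp3 (67.3 against 20.3 CPM), a receptor partner protein, were higher. Tnik (53.1 against 195 CPM), a kinase of the Wnt pathway, Nfatc1 (21.2 against 99.1 CPM), a transcription factor downstream of the T cell receptor, and Smad3 (21.2 against 71.5 CPM), which relays TGF-beta, were lower. Of 27 interferon-gamma response genes 3 were lower, Gbp6 (17.7 against 60.0 CPM), Gbp9 (10.6 against 33.9 CPM) and Wars (3.54 against 25.6 CPM), and 0 were higher. Pdcd1 stood at 166 against 86.1 CPM and was not called. The class held only 282426 UMIs in CD40plusCTLA4, so its low levels here rest on few UMIs. Of 26 named called genes 15 kept their call with equal cell numbers, 6 within the largest cluster and 3 when thinned to 500 UMIs.

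Of 23 cell cycle genes measured in conventional CD4 T cells 2 were higher, Top2a (163 against 75.6 CPM) and Stmn1 (191 against 73.5 CPM), and the median was 0.965. Within the largest CD4 cluster alone the count was 0 of 7 with a median of -0.08, and Top2a changed sign to -0.32. With equal cell numbers 107 genes were higher and 94 lower.

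CD8 T cells, 46 against 380, were too few for calls, so their levels are given as they stand. Cd8a was at 409.7 CPM (344 to 484) in CD40plusCTLA4 and 411 CPM (385 to 438) in PD1plusCTLA4, and Nkg7, a cytotoxic granule protein, at 1256 and 1246 CPM. Ifng was at 189 CPM (145 to 241) and 768 CPM (732 to 804). Among chemokine genes Ccl4 was at 41.3 CPM (22.6 to 69.2) and 1059 CPM (1017 to 1102), Ccl3 at 8.84 and 408 CPM, and Xcl1 at 645 and 2466 CPM. Ccl5 was at 1035 and 2602 CPM.

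Granule genes of the CD8 T cells did not share a direction. Gzmb was at 168 CPM (127 to 218) in CD40plusCTLA4 and 94.5 CPM (82.3 to 108) in PD1plusCTLA4, whereas Gzma was at 23.6 and 119 CPM and Prf1, which encodes perforin, at 61.9 and 111 CPM. The exhaustion-linked factor Tox was at 483 CPM (412 to 563) and 866 CPM (828 to 905). Pdcd1 was at 327 CPM (269 to 394) and 303 CPM (281 to 327), with overlapping intervals. Of the cycling genes, Mki67 was at 144 and 152 CPM and Top2a at 392 and 256 CPM.

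Over all dendritic cells 336 of 6060 genes (5.54%) were higher and 950 (15.7%) were lower in CD40plusCTLA4. With TMM scaling, which sets the bulk of genes level and shifted log2 folds by 0.27 here, the split was 520 higher and 635 lower. These counts compare 97.3% mature cells with 32.5% mature cells. Genes of maturation were higher in 22 of 30 (median 1.42, all genes -0.285), with Ccr7 at 996 against 388 CPM and Fscn1 at 1923 against 415 CPM. Type 2 genes were lower in 12 of 17, with Mgl2, a lectin, at 47.6 against 813 CPM and Cd209a at 4.9 against 162 CPM, and type 1 genes in 9 of 14, with Xcr1 at 0 UMIs and 29.6 CPM. Cell cycle genes were lower in 13 of 20.

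Mature dendritic cells, a single cluster in both libraries with 146 and 164 cells, were then compared apart from the other types. There 199 of 5359 genes (3.71%) were higher and 275 (5.13%) were lower, and 24 and 59 of these were called the same way in macrophages. Ccr7 (1018 against 1298 CPM), Fscn1 (1965 against 1391 CPM) and the growth factor receptor Flt3 (65.2 against 74.4 CPM) stayed under the 2-fold limit. The 9 markers that named the class, Ccl22 among them, summed to 10253 against 5835 CPM. Of these 7 were higher in CD40plusCTLA4, 2 of them by the call rule. Xcr1 and Cd209a were at or near 0 in both.

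Cd40, the receptor that the agonist binds, stood at 591 CPM (552 to 633) in CD40plusCTLA4 and 174 CPM (152 to 198) in PD1plusCTLA4, 3.4-fold (2.93 to 3.96) higher. The level was 407 CPM in PD1plusCD40 and 443 CPM in Triplet, so all 3 libraries that received anti-CD40 lay above PD1plusCTLA4, with only 41 mature dendritic cells in Triplet. Macrophages held 57.4 against 46.7 CPM, not called. Of the 23 measured genes of CD40 and NF-kB signalling 5 were higher, 1 was lower and the median was 0.303, beside -0.0538 over all genes measured. With cells thinned to 500 UMIs the list counted 2 higher and 2 lower of 14.

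The higher members included inhibitors that NF-kB itself turns on. Nfkbia, which encodes the inhibitor IkB-alpha, stood at 1260.3 CPM (1202 to 1321) in CD40plusCTLA4 and 465 CPM (428 to 503) in PD1plusCTLA4, 2.71-fold (2.47 to 2.98) higher, with 1085 CPM in PD1plusCD40 and 668 CPM in Triplet. Nfkbie stood at 64.4 against 29.5 CPM and Bcl2l1, which encodes the survival protein Bcl-xL, at 68 against 24.8 CPM. The subunit genes themselves were not called: Nfkb1 stood at 327 against 482 CPM, Rel at 463 against 863 CPM, Relb at 254 against 371 CPM and Nfkb2 at 148 against 119 CPM. Traf1, an adaptor of CD40, stood at 548 against 414 CPM.

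Map3k14, which encodes NIK, the kinase that starts the non-canonical NF-kB branch below CD40, was the member that was lower. It stood at 32.2 CPM (23.5 to 43.1) in CD40plusCTLA4 and 308 CPM (278 to 339.7) in PD1plusCTLA4, 9.55-fold (7.01 to 13.3) lower, with UMIs in 35 cells and 134 cells. Its level was 50.6 CPM in PD1plusCD40 and 188 CPM in Triplet, so CD40plusCTLA4 was the lowest and PD1plusCTLA4 the highest of the 4. Macrophages held 12 against 24.1 CPM.

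Chemokines of mature dendritic cells were higher in 6 of 16 and lower in 3 (median 0.768). Ccl22, a CCR4 ligand that draws Tregs and helper T cells, stood at 4997 CPM (4881 to 5116) in CD40plusCTLA4 and 1541 CPM (1474 to 1610.1) in PD1plusCTLA4, 3.24-fold (3.09 to 3.41) higher, and Ccl17, which binds the same receptor, at 3913 CPM (3809 to 4018) in CD40plusCTLA4 and 1767 CPM (1695 to 1841) in PD1plusCTLA4, 2.21-fold (2.11 to 2.33) higher. Ccl22 stood at 4414 CPM in PD1plusCD40 and 3297 CPM in Triplet, all above PD1plusCTLA4. Ccl5, the most abundant of the named chemokines, was level at 10250.3 against 10018 CPM. Cxcl9 (60.9 against 136 CPM), a ligand of CXCR3, was lower, and Cxcl10 (27.2 against 9.31 CPM), another, was higher at a low level. Ccl2, Ccl6, Ccl8, Ccl12, Cxcl9 and Cxcl10 were each over 5 times higher in another class, and with top doublet scores removed the list counted 8 higher and 0 lower of 16, and with thinned cells 2 and 0 of 4.

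Cytokines and costimulatory ligands differed by member. Ebi3, a subunit of interleukin-27 and interleukin-35, stood at 145 CPM (125 to 166) in CD40plusCTLA4 and 23.3 CPM (15.7 to 33.2) in PD1plusCTLA4, 6.22-fold (4.22 to 9.45) higher, and Cd70, the ligand of CD27 on T cells, at 99.5 CPM (83.7 to 118) in CD40plusCTLA4 and 18.6 CPM (11.9 to 27.7) in PD1plusCTLA4, 5.35-fold (3.45 to 8.63) higher. Tnfsf9, the ligand of 4-1BB, stood at 27.9 against 6.98 CPM and Il6 at 34.4 against 4.65 CPM. Ebi3 was at 131 CPM in PD1plusCD40 and 134 CPM in Triplet, and Cd70 at 63.2 CPM in PD1plusCD40 and 47.7 CPM in Triplet. Both genes thus stood higher in each library that received anti-CD40 than in PD1plusCTLA4.

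Pdcd1lg2, which encodes PD-L2, a ligand of PD-1, was lower at 53 CPM (41.6 to 66.5) in CD40plusCTLA4 and 188 CPM (165 to 214) in PD1plusCTLA4, 3.56-fold (2.73 to 4.68) lower. It was lower in macrophages as well (7.44 against 29.2 CPM). Cd274, which encodes PD-L1, the other PD-1 ligand, was level at 463 against 434 CPM. The CD28 ligands Cd80 (193 against 146 CPM) and Cd86 (397 against 212 CPM) were not called. Il12b, a subunit of interleukin-12, stood at 130.3 against 219 CPM, with 80.8 CPM in PD1plusCD40 and 795 CPM in Triplet.

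The genes with the lowest folds in mature dendritic cells stood near 0 in CD40plusCTLA4. Aldh1a2, which makes retinoic acid, a signal for gut-homing and regulatory T cells, had 2 UMIs in CD40plusCTLA4 and 195 UMIs in PD1plusCTLA4, or 1.43 against 151 CPM. It stood at 3.51 CPM in PD1plusCD40 and 65.9 CPM in Triplet. Dkk2 (7.88 against 161 CPM), a secreted Wnt modulator, Rerg (13.6 against 202 CPM), a small GTPase, and Dpp4 (24.3 against 142 CPM), a dipeptidase, showed the same picture. Among the other treated libraries Dkk2 stood at 7.73 CPM in PD1plusCD40 and 95.4 CPM in Triplet, Rerg at 11.9 CPM in PD1plusCD40 and 93.1 CPM in Triplet and Dpp4 at 27.4 CPM in PD1plusCD40 and 139 CPM in Triplet. For Aldh1a2, Dkk2, Rerg and Dpp4 alike, CD40plusCTLA4 and PD1plusCD40, with 2 and 4 type 2 dendritic cells, lay below PD1plusCTLA4 and Triplet, with 289 and 263.

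Stat4 (297 against 643 CPM), a relay of interleukin-12 signals, Bcl2l14 (29.4 against 140.4 CPM), a Bcl-2 family member, Tnip3 (77.3 against 244 CPM), an NF-kB modulator, and Fabp4 (5.73 against 109 CPM), a fatty acid carrier, were also lower. Of 23 interferon-gamma response genes 1 was higher and 4 were lower: Gbp4 (15 against 69 CPM), Gbp8, Gbp9 and Cxcl9. Type I interferon genes were higher in 2 of 15, Isg15 and Irf7. MHC class II genes were higher in 2 of 11, with H2-Ab1 at 1908 CPM (1836 to 1981) in CD40plusCTLA4 and 834 CPM (785 to 885) in PD1plusCTLA4.

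Metabolic, cycling and stress genes held several calls. Glycolysis and hypoxia genes counted 6 of 10 (median 1.06), with Gapdh at 1434 against 672 CPM, Aldoa at 554 against 247 CPM and Tpi1 at 170.4 against 73.7 CPM, all enzymes of glycolysis. When only the 2 compared libraries were clustered, the list counted 0 higher and 1 lower of 11 (median 0.46). Cell cycle genes counted 5 of 12, and the heat shock gene Hspa1a stood at 66.6 against 0.775 CPM, from 93 UMIs against 1. Erythroid markers summed to 155 CPM in CD40plusCTLA4 and 7.75 CPM in PD1plusCTLA4 in this class, and macrophage markers to 866 and 1356 CPM. Their part was not tested.

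**Figure D4:**
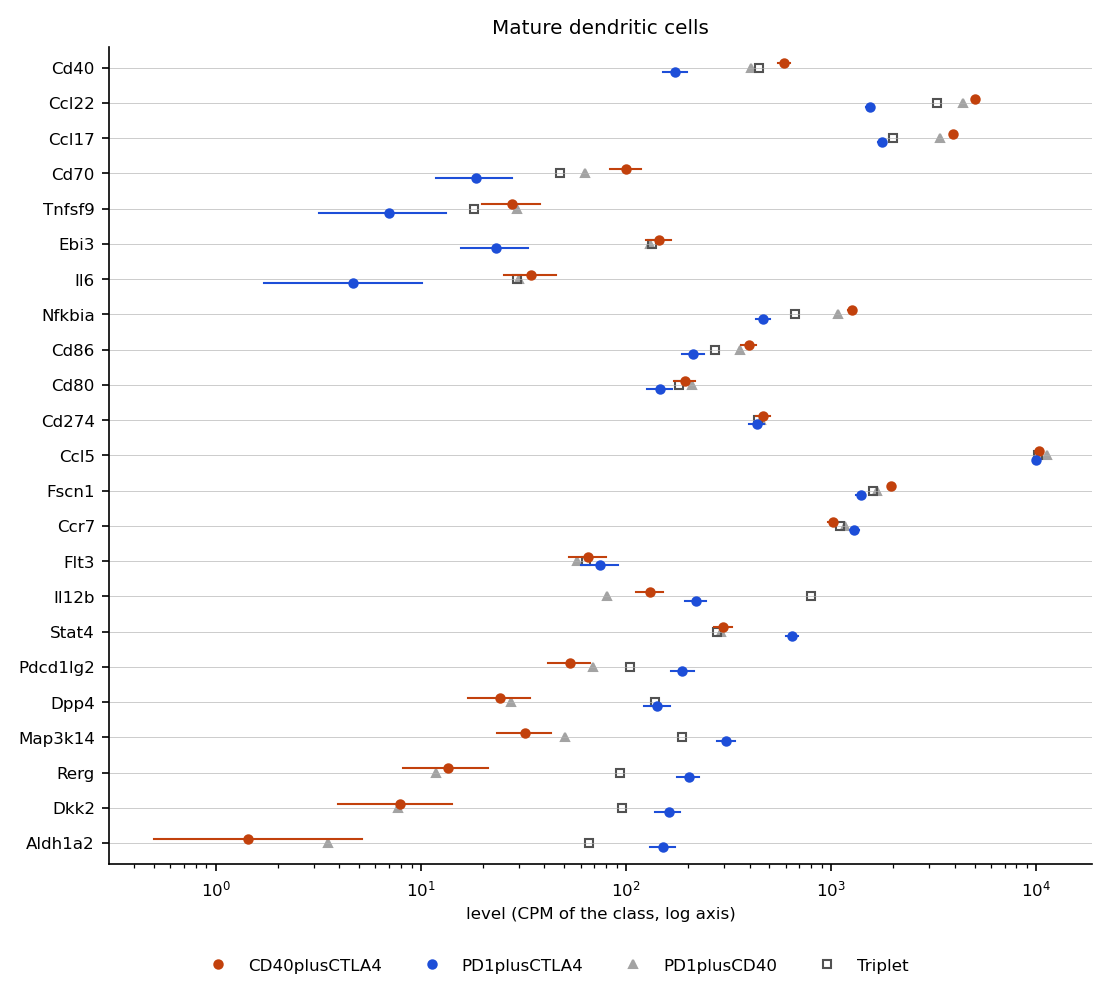
Level (CPM, log x axis) of 23 genes in mature dendritic cells of the 4 libraries of treated mice, with exact Poisson 95% intervals for CD40plusCTLA4 and PD1plusCTLA4. Cd40 (591 against 174 CPM), Ccl22, Ebi3 and Cd70 lie to the right in CD40plusCTLA4, Map3k14 (32.2 against 308 CPM), Aldh1a2, Dkk2 and Rerg to the left, and Ccr7 and Fscn1 lie close together.

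In neutrophils 137 of 4382 genes (3.13%) were higher and 354 (8.08%) were lower in CD40plusCTLA4, with 14 and 49 of them called the same way in macrophages. TMM scaling shifted log2 folds by 0.32 and turned the split to 279 higher and 131 lower. The split of macrophages likewise went to 199 higher and 135 lower. Folds of neutrophil genes are therefore read against the median of all genes, -0.217. The class markers S100a8, a subunit of calprotectin, and Csf3r, the G-CSF receptor, stood at 30959 against 15755 CPM and 1327 against 1702 CPM.

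Type I interferon response genes were the list with the most calls in neutrophils. Of 28 measured members (30 listed) 19 were higher and 0 were lower, with a median of 1.41. Isg15, a ubiquitin-like antiviral protein, stood at 1865 CPM (1747 to 1989) in CD40plusCTLA4 and 506 CPM (427 to 595) in PD1plusCTLA4, 3.69-fold (3.09 to 4.42) higher. Isg15 stood at 1596 CPM in PD1plusCD40 and 769 CPM in Triplet. Macrophages of the compared libraries held 232 against 161 CPM and counted 0 of 25 for the list (median -0.06).

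Of the IFIT genes, whose proteins bind viral RNA, 3 were called higher besides the near copy Ifit3b. Ifit1 stood at 272 CPM (228 to 322) in CD40plusCTLA4 and 66.3 CPM (39.9 to 103) in PD1plusCTLA4, 4.11-fold (2.53 to 7.04) higher, Ifit3 at 107 against 27.9 CPM and Ifit2 at 86.7 against 20.9 CPM, the latter 2 from only 8 and 6 UMIs in PD1plusCTLA4. With the marker gate per barcode in place of clusters, Ifit2 changed sign (-0.46 on the log2 scale). Ifit3b (153 against 38.4 CPM) is a near copy of Ifit3, so the split of reads between them is uncertain. Ifit1 was at 153 CPM in PD1plusCD40 and 114 CPM in Triplet, between the values of the compared libraries.

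Sensors and regulators of the pathway were called too. Zbp1, a sensor of unusual nucleic acids, stood at 308 against 76.7 CPM, Irf7, a factor that amplifies interferon genes, at 351 against 139 CPM, and Stat2, part of the complex that the interferon receptor activates, at 78.6 against 20.9 CPM. Bst2, which tethers budding virus, stood at 276 against 97.6 CPM, and Oas1a, an enzyme that arms RNase L, at 44.4 against 13.9 CPM. The most abundant members were Ifi27l2a (4452 against 1545 CPM) and Ifitm3 (2831 against 1060.1 CPM), a membrane protein that blocks virus entry.

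Members without a call were Trim30a, Oas2, Oas3, Slfn5, Rsad2, Eif2ak2, Ifih1, Cmpk2 and Oasl1, the last at 117 against 149.9 CPM. Phf11b and Ifi44 were not measured. Interferon-gamma response genes were called in 0 of 25 upward and 1 downward, or 4 upward and 1 downward under TMM scaling (median 0.36), with Cxcl10, which both interferons induce, at 835 against 575 CPM. The type I count depended on how neutrophils were chosen. A gate on Csf3r and S100a8 per barcode gave 5 of 29 (median 0.35), leaving out cells with over 2 UMIs of macrophage genes gave 15 of 25 (median 1.20), and TMM scaling gave 20 of 28. Isg15 and Ifit1 were called under each of them.

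The promoters of these genes were read for the core of the interferon-stimulated response element, GAAA, any 2 bases and GAAA again, on both strands. The windows, from RefSeq on GRCm38.p6, run from 250 bases before to 50 after the start of transcription, while the submitters' processing notes name mm9 for the counts. Of 25 list members with a window 16 held the motif, against 3.99% of the 27025 genes in the table. Among members called in neutrophils it was 9 of 15 and among those measured but not called 6 of 8, so the motif did not separate them. A match describes letters and is not a site. The 30 bases around the match of 5 called genes are shown as examples of a match, with the motif in capitals (TTTC runs are the motif on the other strand).
Ifit1, chr19:34640794-34640823, plus strand: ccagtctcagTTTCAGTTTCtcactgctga
Ifit3, chr19:34583397-34583426, plus strand: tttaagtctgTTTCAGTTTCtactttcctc
Isg15, chr4:156200865-156200894, minus strand: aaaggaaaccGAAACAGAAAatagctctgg
Oas1a, chr5:120907520-120907549, minus strand: tcgggaaatgGAAACTGAAAatctacttcc
Stat2, chr10:128270266-128270295, plus strand: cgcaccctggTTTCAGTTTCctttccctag

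**Figure D5:**
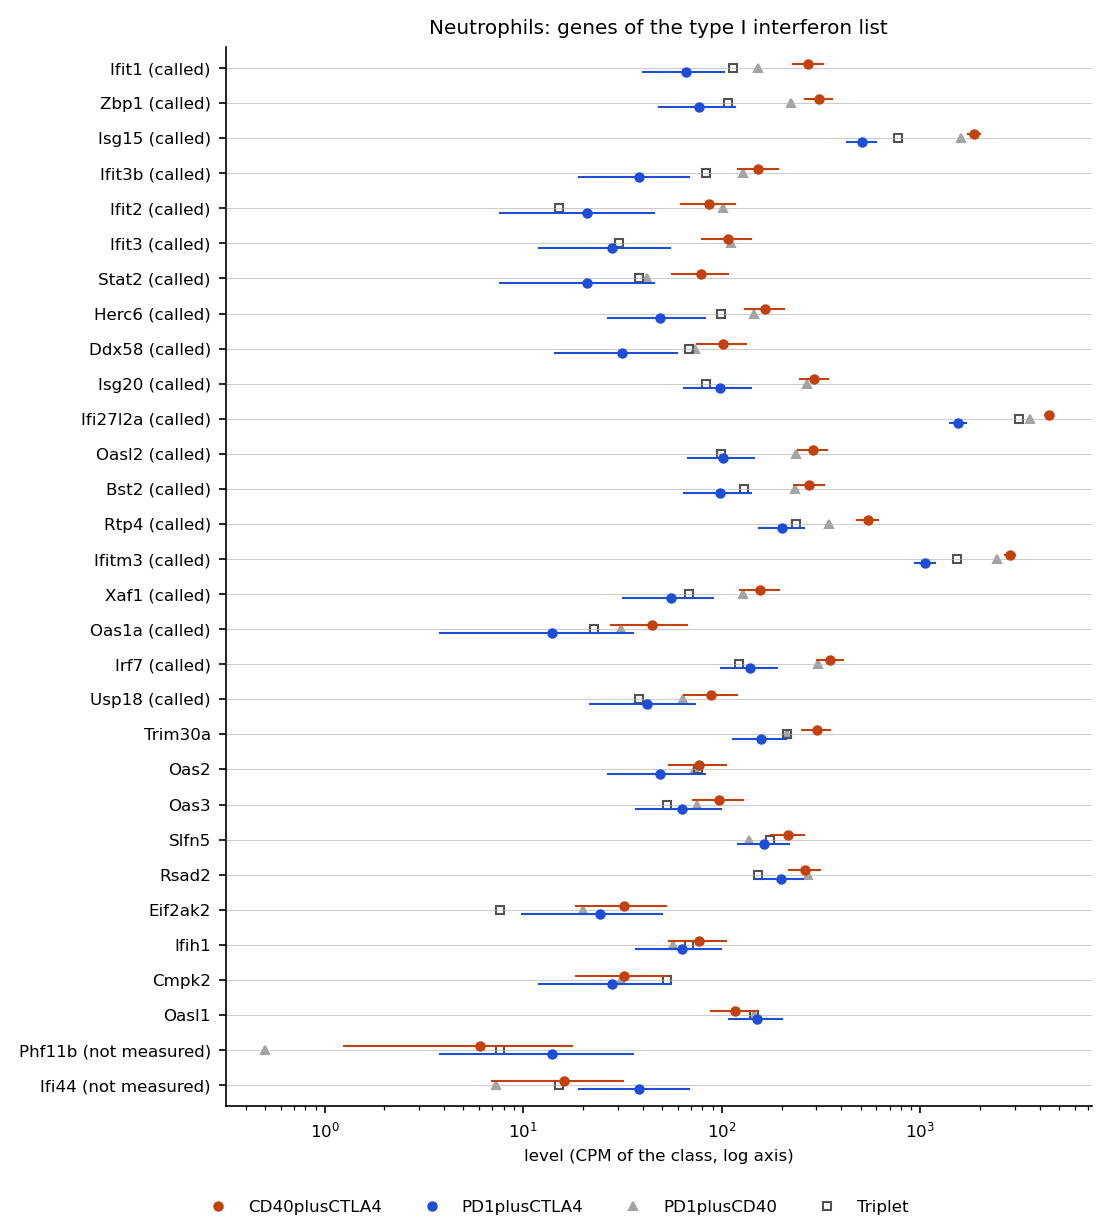
Level (CPM, log x axis, 0 drawn at the left edge) of the 30 type I interferon response genes in neutrophils of the 4 libraries of treated mice, with exact Poisson 95% intervals for CD40plusCTLA4 and PD1plusCTLA4 and the called and not measured genes marked as such. In 19 genes CD40plusCTLA4 lies to the right of PD1plusCTLA4 by the call rule, as with Isg15 at 1865 against 506 CPM.

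Antigen presentation genes of neutrophils went both ways. MHC class I genes were higher in 4 of 17 (median 0.41), with H2-K1 at 1744 against 638 CPM, H2-D1 at 4607 against 2064 CPM and B2m, the shared light chain, at 3776 against 1820.3 CPM. In macrophages the same genes were level, with B2m at 2111 against 2055 CPM. MHC class II genes were lower in 4 of 9 (median -1.43), among them H2-Aa (151 against 683 CPM) and Cd74 (469.8 against 1273 CPM). The class I count was 0 higher and 1 lower of 18 with the marker gate, and the class II count was 0 of 6 without cells that carried over 2 macrophage UMIs.

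S100 and antimicrobial genes were higher in 6 of 16 (median 0.976), and in 12 of 16 under TMM scaling. Lcn2, which encodes the iron-trapping lipocalin of neutrophil granules, stood at 798 CPM (722 to 881) in CD40plusCTLA4 and 164 CPM (120.4 to 218) in PD1plusCTLA4, 4.87-fold (3.59 to 6.74) higher, and Ltf, another granule protein, at 82.7 against 17.4 CPM. Stfa2, a stefin protease inhibitor, stood at 254 against 62.8 CPM and Wfdc17 at 2081 against 502 CPM. Ngp, a protein of immature granules, stood at 263 UMIs in 8 cells and 4 UMIs in 3 cells and was not called. Lcn2 lost its call without cells of over 2 macrophage UMIs (0.77).

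Upp1, a uridine phosphorylase, had one of the widest differences, at 1153 CPM (1061 to 1252) in CD40plusCTLA4 and 167 CPM (123 to 222) in PD1plusCTLA4, 6.89-fold (5.13 to 9.45) higher, with 1032 CPM in PD1plusCD40 and 319.7 CPM in Triplet. It was also higher in macrophages (36.3 against 15 CPM). The chemoattractant receptor Cxcr2 (635 against 673 CPM) and the cytokine gene Il1b (9537 against 6633 CPM) were not called. Rap1gap2 (56.5 against 279 CPM), a brake on the GTPase Rap1, was lower, as was Nr4a1 (60.5 against 149.9 CPM), an immediate early receptor, which missed the limit under TMM (-0.94).

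Among the genes with the lowest folds were Ccr2 (26.2 against 188 CPM), the monocyte chemokine receptor, and Slc8a1 (22.2 against 153 CPM), a sodium-calcium exchanger. Ccr2 was lower in macrophages too (247 against 661 CPM). Markers of several other cells summed higher in PD1plusCTLA4 neutrophils: T cell markers summed to 56.5 CPM in CD40plusCTLA4 and 307 CPM in PD1plusCTLA4, NK markers to 2.02 and 149.9 CPM, type 2 dendritic markers to 22.2 and 108 CPM and erythroid markers to 16.1 and 701 CPM. Osteoclast-like markers went the other way, at 665 and 534 CPM, and 3 of 5 measured osteoclast genes were called higher in CD40plusCTLA4 neutrophils (Acp5, Ctsk and Car2). Macrophage markers were close, at 1266 and 1231 CPM, and neutrophil markers summed to 100731 and 57377 CPM. The part of this other RNA in the neutrophil folds was not tested.

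A few genes differed the same way in T cells, mature dendritic cells, neutrophils and macrophages. Lmna, which encodes lamins of the nuclear envelope, was higher in all 4 classes, at 78.1 against 33.7 CPM in T cells, 77.3 against 31.8 CPM in mature dendritic cells, 78.6 against 13.9 CPM in neutrophils and 546 against 138 CPM in macrophages. The predicted gene Gm10076 was also higher in all 4. Selenop, a secreted selenium carrier, was lower in all 4. Lmna stood at 108 and 47.6 CPM in T cells of PD1plusCD40 and Triplet, so PD1plusCTLA4 was the lowest of the 4 libraries there. In macrophages interferon-gamma response genes were lower in 15 of 29 (median -1.05), or 9 of 28 under TMM scaling. Different clusters held most macrophages of the 2 libraries. One led by Cxcl9, itself a gene that interferon-gamma induces, held 465 of the PD1plusCTLA4 macrophages (45.3%) and 202 in CD40plusCTLA4, where 3 others held 26.9%, 22.6% and 22.4%. The part of this makeup in the count was not tested.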

How the data were processed

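The deposited values are raw UMI counts per gene (32285 genes) and barcode, made by the authors with Cell Ranger 7.1.0 per the file headers. The submitters' processing notes name the build mm9, and no source used here gives the annotation. The deposited count table of CD40plusCTLA4 lists 1751343 barcodes and those of the other treated libraries only barcodes of 500 or more UMIs, so 1 filter was used for all: at least 500 UMIs, 300 genes and at most 10% mitochondrial UMIs. Total counts were 95867828 UMIs in CD40plusCTLA4 and 90313850 in PD1plusCTLA4. The PBS library was not used here.

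The 4 treated libraries were clustered together in Scanpy 1.11.5 (2000 variable genes, 30 components, 15 neighbours, leidenalg 0.10.2 at resolution 1, no integration), and lymphoid and phagocyte clusters were split once more. Names came from 20 marker lists. The thresholds for naming were chosen with the data in view, and the members and the 30 gene lists were chosen with earlier results of these data known. Scrublet called 1 doublet in CD40plusCTLA4 and 0 in PD1plusCTLA4, so it has not worked, and doublets were kept. Counts were summed per class and library. Levels have exact Poisson, shares exact Clopper-Pearson and ratios exact conditional 95% intervals (scipy 1.17.1). Classes under 50 cells in a library were not called. A share of 0 is given with the share that 3 cells would make.

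Named genes were, per class, the 10 highest and 10 lowest folds among called genes with at least 50 CPM in the higher library, to which the antibody targets, the rule's markers and up to 6 members per list were added. The rule leaves out mitochondrial, ribosomal, receptor segment, predicted and Y-linked genes, Xist and Tsix, and genes with over 25% of UMIs in 1 cell or over 5 times higher in another class. Members of the leading lists outside that rule, levels of classes too small for calls, and genes called in every class were chosen after their values were seen. Alternatives were other barcode, mitochondrial, doublet, clustering and scaling choices (TMM of edgeR 4.0.16), pseudocounts of 1 and 20 CPM, no low-count filter, thinning to 500 UMIs, equal cell numbers and a limit on macrophage RNA. Some results that the naming rule would give are not reported here, but all counts hold them. The fold and interval code was tested on simulated data.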

Additional observations from a re-analysis of the deposited data

Results flagged for a closer look

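Some genes were called in opposite directions in 2 cell classes of the same 2 libraries. The differences between classes were not tested, since each library gives 1 value per class.

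Ly6a was higher in T cells of CD40plusCTLA4 (774 against 332 CPM) and lower in its macrophages (27 against 298 CPM), and the log2 folds differed by 4.45. Wfdc17, a secreted protein of phagocytes, was higher in neutrophils (2081 against 502 CPM) and lower in mature dendritic cells (58 against 225 CPM) and macrophages (297 against 653 CPM). Its log2 fold in mature dendritic cells minus that in neutrophils was -3.91, and that in neutrophils minus that in macrophages was 3.16. Fabp5, a fatty acid carrier, was lower in mature dendritic cells (1419 against 3033 CPM) and higher in macrophages (972 against 201 CPM), a difference of -3.34.

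Pde4d, which breaks down cyclic AMP, and Adam8, a membrane protease, were likewise lower in mature dendritic cells and higher in macrophages. Pde4d stood at 219.8 against 587 CPM and at 159.7 against 55.8 CPM, a difference of -2.83. Adam8 stood at 57.3 against 129 CPM and at 54.8 against 19.7 CPM, a difference of -2.38. Mreg was lower in mature dendritic cells (145 against 299 CPM) and higher in neutrophils (74.6 against 27.9 CPM), a difference of -2.29. Rapgef2, an activator of the GTPase Rap1, was higher in mature dendritic cells (189 against 72.1 CPM) and lower in neutrophils (42.3 against 112 CPM), a difference of 2.63.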

How the results depend on the processing

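The Treg share ratio (1.35) ran from 1.31 to 1.35 and the mature dendritic share ratio (3) from 2.64 to 3.11 over the alternatives. None of the alternatives changed the minimum score for a name, on which the mature share depends. The neutrophil share ratio (0.94) was 1.8 with 1000 UMIs and 500 genes, 0.402 with the marker gate and 1.24 with 2 libraries clustered alone. The counts of called genes, 58 in T cells, 145 in Tregs, 278 in conventional CD4 T cells, 1286 in dendritic cells, 474 in mature dendritic cells, 491 in neutrophils and 370 in macrophages, moved by over 1.5 times as follows. A pseudocount of 20 CPM gave, in that order, 23, 28, 81, 703, 216, 259 and 178, and one of 1 CPM gave 97 in T cells and 222 in Tregs. Thinning to 500 UMIs gave 249 in T cells, 102 in conventional CD4 T cells, 472 in dendritic cells, 141 in mature dendritic cells, 221 in neutrophils and 645 in macrophages. No low-count filter gave 97 in T cells and the marker gate 344. The macrophage RNA limit gave 296 in neutrophils, and clustering the 2 libraries alone 557 in macrophages. The cause was not tested.

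Signs reversed for Cd40lg in Tregs when thinned (0.07), for Top2a in conventional CD4 T cells when thinned (-0.58), in the largest cluster (-0.32, added after seeing the data) and with the macrophage RNA limit (-0.34). With the marker gate they reversed for Fdps in T cells (-0.10), Bst2 (-0.13) and Ndrg1 (-0.32) in dendritic cells, and Ly6c1 (-1.02), Ifit2 (-0.46) and Ero1l (-0.47) in neutrophils. Over 3197 values of named called genes under the alternatives, 2803 were still called. That total includes a pseudocount of 1 CPM and no low-count filter, which kept every named call. Thinning to 500 UMIs kept 11 of 12 in T cells, 9 of 26 in Tregs and 3 of 26 in conventional CD4 T cells. It kept 51 of 77 in dendritic cells, 10 of 43 in mature dendritic cells, 26 of 44 in neutrophils and 31 of 33 in macrophages. The macrophage RNA limit left under 50 dendritic cells in CD40plusCTLA4 and was not run there, and the marker gate gives no subclasses. No paired analysis was possible because each group had 1 library. Depth limits neutrophil genes most, with medians of 1096 and 870.5 UMIs per cell.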

Other observations

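NK cells, cytotoxic lymphocytes sorted with the CD3-negative cells, were 237 in CD40plusCTLA4 and 844 in PD1plusCTLA4, or 5.19% (4.57 to 5.88) and 28.5% (26.9 to 30.1) of the named CD45+CD3- cells. Unnamed clusters with Gzma and Ncr1 among their leading genes are left out of this share. The largest, which also had Ctsk and Mmp9 among them, held 1021 and 18 barcodes, and others 36 and 89, and 5 and 16. Over whole libraries the NK marker Ncr1 stood at 27.9 and 46.7 CPM. Granzymes of the named NK cells stood higher in CD40plusCTLA4, with Gzmb at 1241 and 568 CPM and Gzmc at 533 and 113 CPM. Xcl1, which was lower in T cells, stood at 1999 CPM in CD40plusCTLA4 and 987 CPM in PD1plusCTLA4, whereas Ccl4 stood at 139 and 543 CPM and Ccl5 at 5295 and 11672 CPM. Itga4 stood at 89.2 and 306 CPM. Stmn1 (477 and 143 CPM) and Pclaf (233 and 50.4 CPM), genes of cycling cells, stood higher in CD40plusCTLA4. Different clusters held most NK cells in the 2 libraries, 1 with 67.1% and 8.65% of them and another with 14.3% and 75.8%, and the median depth was 4849 and 2276 UMIs. NK cells were left out of the alternatives, and no count of called genes is given for them.

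Plasmacytoid dendritic cells, a main source of type I interferon, were 45 and 201 cells, or 0.986% and 6.78% of the same fraction. Their lectin gene Siglech stood at 742 CPM (589 to 922) and 1307 CPM (1249.9 to 1365). Irf7 stood at 229 CPM (148 to 338) and 106 CPM (90.6 to 124), and Isg15 at 201 CPM (126 to 305) and 74.8 CPM (61.7 to 89.9). In CD40plusCTLA4 these 2 levels rest on 25 and 22 UMIs. The median depth of the class was 1343 and 4938 UMIs, and Siglech had UMIs in 25 of 45 and 199 of 201 cells. The class is thus less sure in CD40plusCTLA4, and its levels are not read as a difference in state. B cells were 5 and 137 cells, or 0.11% and 4.62%.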
